A study of Mus musculus with 8 samples.

Results

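Acid and base secretion by the collecting duct of the kidney was examined through 10 genes of its intercalated cells, in messenger RNA from mouse kidneys with and without a conditional knockout of Kdm1a. The genes are Foxi1, Hmx2, Slc4a1, Slc26a4, Slc4a9, Atp6v1b1, Atp6v1g3, Atp6v1c2, Atp6v0d2 and Oxgr1. They were taken by name, as the 10 of 49315 Ensembl gene IDs in the count table that carry these symbols in GENCODE M21. All 10 passed the filter on low counts and were tested. Frozen kidney tissue from 4 libraries of the genotype labelled Control and 4 labelled Conditional Knockout was sequenced after oligo-dT capture. The control samples are termed wild type in the extraction protocol. Strain, age, sex, the recombinase and the cells in which it acts are not given in the labels. Kdm1a encodes the histone demethylase LSD1, a part of repressor complexes. The labels do not say whether each library came from a separate animal, so p values measure the spread between these libraries.

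Intercalated cells lie scattered among the principal cells of the connecting tubule and collecting duct. Type A cells carry a vacuolar proton pump (V-ATPase) in the apical membrane and send bicarbonate to the blood through Slc4a1. Type B cells send bicarbonate to the urine through Slc26a4, also called pendrin, and carry the pump and Slc4a9 on the basolateral side. The pump is built from a cytosolic V1 part, which splits ATP, and a membrane V0 part, which carries protons. Several of its subunits exist in a form found in most cells and a second form enriched in intercalated cells. Foxi1 is the forkhead transcription factor required for these cells to form.

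Because Foxi1 is a forkhead factor, the bases just before the start sites of a few of the genes are shown. Sequences of 250 bases upstream of the RefSeq start (GRCm38.p6) were found for 7 of the 10 genes, in 8 windows. The letters TGTTTA and TGTTTG, which are core forkhead motifs, were searched on both strands, where they read TAAACA and CAAACA in reverse. They do not overlap each other. Of 32851 such windows in the mouse set, 3952 held TGTTTA, 5255 held TGTTTG and 8318 (25.3%) held either. Among the 8 windows 3 held a match, which was not tested against that share. The part of Foxi1 in the levels of the other genes was not tested either. Capitals mark the matches in the first pair of sequences, from pump subunit genes, and the second pair, from genes of type B cells, holds none. This is no division by role, since the window of the pump subunit gene Atp6v1c2 and that of Foxi1 hold none either. The windows lie at chr6:83742767-83743016 (plus strand) for Atp6v1b1 and at chr1:138273488-138273737 (plus strand) for Atp6v1g3. Those of Slc26a4 and Oxgr1 are on the minus strand, at chr12:31559985-31560234 and chr14:120042436-120042685.
Atp6v1b1: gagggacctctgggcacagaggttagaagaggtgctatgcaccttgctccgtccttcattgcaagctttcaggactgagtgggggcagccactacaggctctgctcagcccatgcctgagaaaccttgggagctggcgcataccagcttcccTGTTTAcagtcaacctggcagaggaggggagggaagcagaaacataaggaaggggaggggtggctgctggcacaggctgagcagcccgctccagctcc
Atp6v1g3: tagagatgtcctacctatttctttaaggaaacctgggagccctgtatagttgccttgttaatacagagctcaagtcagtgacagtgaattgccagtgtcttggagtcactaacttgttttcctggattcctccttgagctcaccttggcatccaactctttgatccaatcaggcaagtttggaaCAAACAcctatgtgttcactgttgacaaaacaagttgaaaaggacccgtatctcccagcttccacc
Slc26a4: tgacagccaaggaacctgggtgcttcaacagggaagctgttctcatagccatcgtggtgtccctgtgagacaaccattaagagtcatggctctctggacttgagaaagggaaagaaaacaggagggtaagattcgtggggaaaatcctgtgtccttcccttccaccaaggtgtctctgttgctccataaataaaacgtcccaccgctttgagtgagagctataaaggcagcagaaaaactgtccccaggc
Oxgr1: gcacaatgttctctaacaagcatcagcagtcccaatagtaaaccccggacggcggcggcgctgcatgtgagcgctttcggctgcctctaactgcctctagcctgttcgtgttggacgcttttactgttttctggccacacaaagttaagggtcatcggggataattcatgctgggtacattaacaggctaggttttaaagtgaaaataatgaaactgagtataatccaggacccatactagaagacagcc
The match in Atp6v1b1 begins 98 bases before the RefSeq start and reads TGTTTA. That in Atp6v1g3 begins 66 bases before its RefSeq start and reads CAAACA. The last 27 bases of the Atp6v1b1 window lie in an annotated exon, since the gene in the count table begins at 83742990. The third match, also CAAACA, begins 46 bases before the upstream start of Hmx2. A match describes the letters only and does not show binding.

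Libraries held between 19524945 and 28544511 counts, so that 1 count stood for 0.0350 to 0.0512 counts per 1000000 (CPM). Kdm1a had 113 ± 4.77 CPM in control libraries against 93.6 ± 1.88 CPM in knockout libraries (SD, n = 4 per group), lower in all 4 knockout libraries and abundant in every one (log2 fold change −0.27, edgeR adjusted p 0.0194). Refitted with 1 library omitted, the call was lost in 5 of 8 cases, without control replicates 1 or 3 or knockout replicates 1, 2 or 4, at adjusted p values from 0.0529 to 0.0765. Over all genes tested, control replicate 2 and knockout replicate 3 stood apart from their groups. On the first principal component of log2 CPM, which held 62.7% of the variance, they lay side by side at 9.56 and 9.71, between the other controls (−78.7 to −52.4) and the other knockouts (48.3 to 68.4). By the chi-square per degree of freedom between 2 libraries, control replicate 2 was nearer to every knockout (16.3 to 20.7) than to any control (31.8 to 56.0). Results are therefore also given without each of these libraries. Transcripts of Y-linked genes were present in 5 libraries and nearly absent from control replicate 2 and knockout replicates 1 and 4, so the sexes are mixed within both groups. Adrenal transcripts were high in knockout replicate 1 (summed 2770 CPM over 12 genes), knockout replicate 4 (383 CPM) and control replicate 4 (154 CPM), against 17.7 to 24.7 CPM elsewhere. Six2, a marker of nephron progenitor cells, stood at 96.9 to 219 CPM in every library.

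All 10 genes had a lower fitted level in the knockouts, by a median of 1.65 on the log2 scale, where the median over all 18485 genes tested was 0.0044. Oxgr1 and Hmx2 fell at an adjusted p under 0.05 by the quasi-likelihood test of edgeR, here termed a call. That is 2 of 10 genes, where 8.27% of all genes tested were called lower. The unadjusted p was under 0.05 for 8 of the 10, against 35.1% of all genes tested. The 4 knockouts lay below all 4 controls for 1 of the 10 genes, Oxgr1, against 9.58% of all genes tested. The 10 genes were chosen with earlier results of these data known. The values over all genes are therefore given for scale only and are no test of the 10 as a set. In whole tissue, fewer intercalated cells and less RNA per cell cannot be told apart.

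Foxi1 (ENSMUSG00000047861, chromosome 11, 34204338 to 34208089, minus strand) had 9.34, 7.46, 15.8 and 18.6 CPM in control replicates 1 to 4. It had 2.07, 0.853, 16.0 and 2.19 CPM in knockout replicates 1 to 4. Knockout replicate 3 thus stood among the controls, while the other knockouts lay below every control. The mean went from 12.8 ± 5.27 to 5.28 ± 7.17 CPM (SD, n = 4 each). The log2 fold difference was −1.26 (SE 0.78) and was not called (edgeR adjusted p 0.272). Of the 8 fits with a library omitted, 1 called Foxi1, that without knockout replicate 3 (−2.87, edgeR adjusted p 0.0126). The call also turned on the model, with all 8 libraries kept. It was made by limma-voom with sample weights (−2.45, adjusted p 0.00544). It was also made by edgeR with the replicate number as a block (−2.01, adjusted p 0.0448), a pairing that the labels do not state.

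Hmx2 (ENSMUSG00000050100, chromosome 7, 131548773 to 131558014, plus strand) encodes a homeobox transcription factor and was the least abundant member. Its levels were 1.19, 0.278, 1.94 and 3.09 CPM in the controls and 0.169, 0.0502, 0.519 and 0.0719 CPM in the knockouts. Knockout replicate 3 was above control replicate 2, and the groups otherwise did not overlap. It fell by 2.90 on the log2 scale (SE 0.80, edgeR adjusted p 0.0419), from 151 counts over the controls to 22 over the knockouts. When libraries were omitted singly, this call held in 2 of 8 cases, without control replicate 2 and without knockout replicate 3. In the other fits, without control replicates 1, 3 or 4 or knockout replicates 1, 2 or 4, the adjusted p reached 0.119. Fgfr2 overlaps Hmx2 on the opposite strand, and nothing states that strand was used in counting.

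None of the 3 anion exchangers was called. Slc26a4 (ENSMUSG00000020651, chromosome 12, 31519827 to 31559969, minus strand) was measured at 4.30, 1.21, 4.64 and 8.59 CPM in the controls and 1.31, 1.16, 1.83 and 1.65 CPM in the knockouts. Its knockout values lay close together, also in replicate 3, and control replicate 2 fell within them. Over the groups it went from 4.68 ± 3.03 to 1.49 ± 0.311 CPM, or −1.64 on the log2 scale (SE 0.49), just short of a call at an edgeR adjusted p of 0.0520. Without control replicate 2 the value was −1.96 and was called, at 0.00201.

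Slc4a9 (ENSMUSG00000024485, chromosome 18, 36528157 to 36541293, plus strand), the basolateral exchanger AE4 of type B cells, was the most abundant member per kilobase of transcript in the controls, at 12.7 CPM per kb. Its levels were 32.7, 14.1, 45.2 and 56.8 CPM in the controls and 6.25, 2.91, 32.3 and 5.07 CPM in the knockouts. As with Foxi1, knockout replicate 3 lay inside the control range and the other knockouts below it. The log2 fold change of −1.66 (SE 0.72) was not called (edgeR adjusted p 0.137), but was −2.94 and called without knockout replicate 3 (adjusted p 0.0144).

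Slc4a1 (ENSMUSG00000006574, chromosome 11, 102348824 to 102366203, minus strand) encodes AE1, which is also the band 3 protein of red blood cells. It stood at 6.23, 4.08, 6.38 and 11.3 CPM in the controls and 14.7, 1.004, 4.29 and 4.64 CPM in the knockouts. The highest value of all libraries was in knockout replicate 1 and the lowest in knockout replicate 2. The log2 fold change was −0.19 (SE 0.64, edgeR adjusted p 0.854), and it changed sign without control replicate 4 (0.13) or knockout replicate 2 (0.16). Without knockout replicate 1 it was −1.06 (adjusted p 0.219). Rhag and Ermap were taken from a list of 12 red blood cell genes and named after their values were seen. Both were also highest in knockout replicate 1. Rhag was 1.18 CPM there and at most 0.504 CPM in the other libraries. The summed red blood cell list was 399 to 824 CPM in the controls and 462 to 1401 CPM in the knockouts, with its highest value in knockout replicate 4. Its mean log2 CPM, less the mean over the controls, was instead highest in knockout replicate 1. The values were 1.14, −0.32, −0.02 and 0.70 in knockout replicates 1 to 4, and −0.29 to 0.23 in the controls. Of the 11 tested genes of the red blood cell list 1 was called, Ermap, upward, where 6.61% of all genes tested were called higher. Knockout replicate 1 also had the highest adrenal sum, 2770 CPM. With the adrenal list as a covariate, the log2 fold change of Slc4a1 was −1.21 (SE 0.45, edgeR adjusted p 0.122). The part of red cell or adrenal transcripts in the level of Slc4a1 was not tested.

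**Figure D1:**
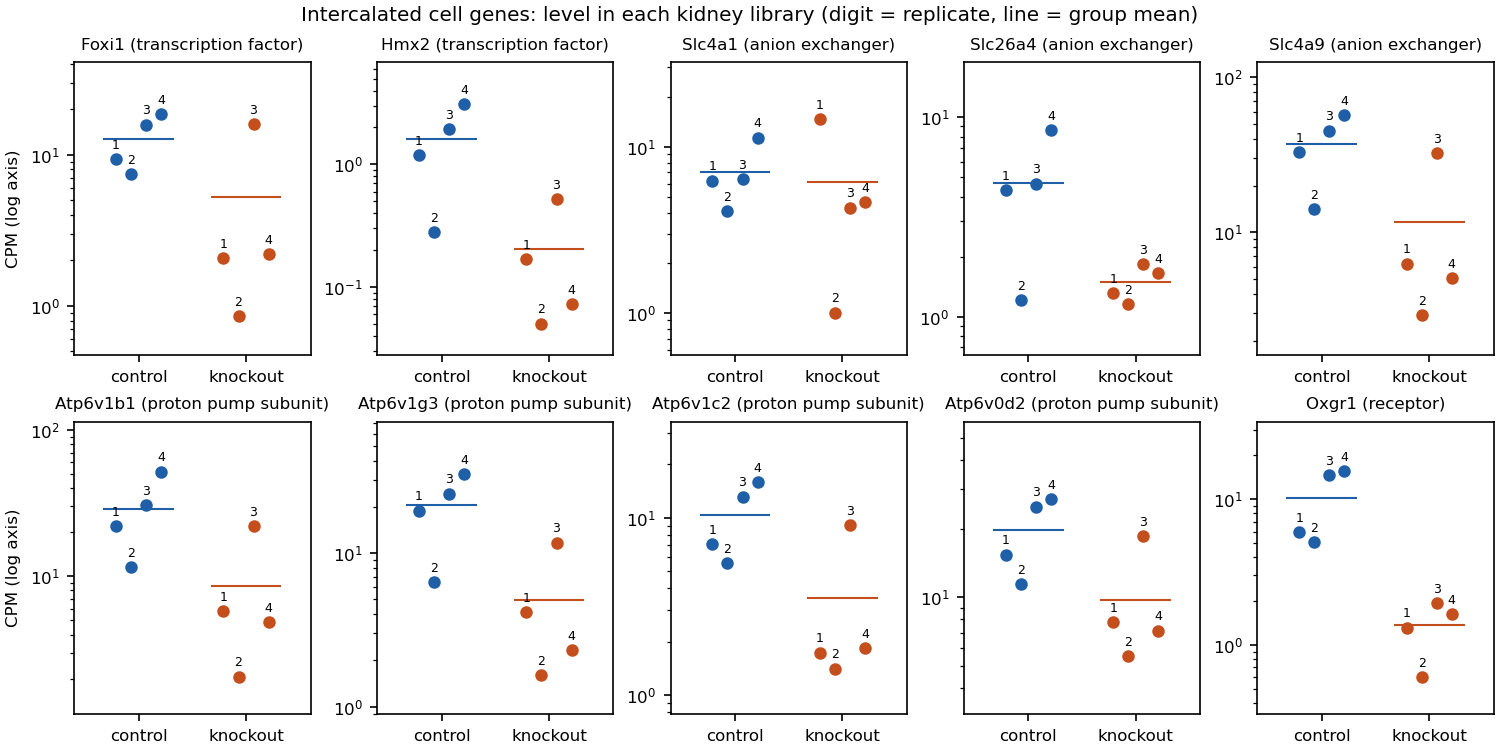
Level of each of the 10 genes in each library, in CPM on a log axis that differs between panels. Each point is a library with its replicate number, and the line is the group mean. In Foxi1, Slc4a9 and the pump subunits, knockout replicate 3 sits among the controls, whereas for Oxgr1 all 4 knockouts lie below all 4 controls.

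The pump subunit genes had a common pattern. Atp6v1b1 (ENSMUSG00000006269, chromosome 6, 83742990 to 83758855, plus strand) encodes the B1 subunit of V1, part of the ATP-splitting head, and its loss causes distal renal tubular acidosis with deafness in people. It stood at 22.0, 11.6, 30.7 and 51.9 CPM in the controls and 5.79, 2.06, 21.9 and 4.86 CPM in the knockouts. Knockout replicate 3 was close to control replicate 1 and the other knockouts were below all controls. Control libraries averaged 29.03 ± 17.1 CPM and knockout libraries 8.65 ± 8.97 CPM, and the log2 fold change of −1.73 (SE 0.69) was not called (edgeR adjusted p 0.110).

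Atp6v1g3 (ENSMUSG00000026394, chromosome 1, 138273738 to 138289462, plus strand) encodes the G3 subunit of the V1 stalk. Its levels were 18.9, 6.49, 24.4 and 32.8 CPM in the controls and 4.14, 1.61, 11.7 and 2.34 CPM in the knockouts. Among the 4 subunits it had the largest fitted difference, −2.05 on the log2 scale (SE 0.65, edgeR adjusted p 0.0628), and knockout replicate 3 exceeded control replicate 2 only.

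Atp6v1c2 (ENSMUSG00000020566, chromosome 12, 17284721 to 17329359, minus strand) encodes the C2 subunit of V1. It measured 7.09, 5.56, 13.2 and 15.9 CPM in the controls against 1.73, 1.41, 9.10 and 1.83 CPM in the knockouts. The log2 fold change was −1.55 (SE 0.63, edgeR adjusted p 0.116). Knockout replicate 3 was again inside the control range, and the remaining knockouts lay close together below it. Pdia6 overlaps the gene on the opposite strand.

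Atp6v0d2 (ENSMUSG00000028238, chromosome 4, 19876841 to 19922605, minus strand) encodes the d2 subunit of V0, which is also used by osteoclasts and some macrophages. It was 15.4, 11.4, 25.02 and 26.9 CPM in the controls and 7.77, 5.52, 18.5 and 7.12 CPM in the knockouts. Of the pump members it differed least, by −1.01 on the log2 scale (SE 0.41, edgeR adjusted p 0.115). The macrophage and osteoclast list summed to 113 to 128 CPM in the controls and 133 to 175 CPM in the knockouts, with 3 of 9 tested genes called higher, where 6.61% of all genes tested were. Its osteoclast fusion gene Dcstamp was at 0.0404 to 0.788 CPM, whereas Ctsk, also a gene of osteoclasts, was among the 3 called higher. The part of these cells in the level of Atp6v0d2 was not tested. All 4 subunits were called without knockout replicate 3, at log2 fold changes from −2.91 to −1.51 and adjusted p values from 0.0127 to 0.0213. Without control replicate 2, Atp6v1b1 (adjusted p 0.0449), Atp6v1g3 (0.0147) and Atp6v0d2 (0.0436) were called and Atp6v1c2 (0.0602) was not.

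Oxgr1 (ENSMUSG00000044819, chromosome 14, 120019585 to 120042435, minus strand) encodes the receptor for 2-oxoglutarate on the luminal side of type B cells. It was measured at 5.94, 5.05, 14.6 and 15.5 CPM in the controls and at 1.31, 0.602, 1.94 and 1.62 CPM in the knockouts. Every knockout was below every control, and knockout replicate 3 stayed near the others. Oxgr1 fell from 10.3 ± 5.54 to 1.37 ± 0.571 CPM, a mean 7.52-fold lower, at a log2 fold change of −2.89 (SE 0.47, edgeR adjusted p 0.0131). The call held in 7 of 8 cases with a library omitted and was lost without knockout replicate 4 (adjusted p 0.0530). Its fold change stayed between −3.11 and −2.63 in these fits.

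The same libraries were high or low in nearly every one of the 10 genes, in much the order that they had over all genes on the first principal component. Control replicate 2 was the lowest control and control replicate 4 the highest in all 10, which was so in 38.5% and 30.7% of all genes tested. Knockout replicate 2 was the lowest knockout in all 10, against 28.2% of all genes tested. Knockout replicate 3 was the highest knockout in 9, the exception being Slc4a1. It lay within the control range for 9 of 10 genes, the exception being Oxgr1, where 56.8% of all genes tested had it there. By the same count, knockout replicates 1, 2 and 4 were within the control range for 1, 0 and 2 members, against 42.2%, 39.7% and 43.4% of all genes tested. Kdm1a itself did not separate knockout replicate 3, at 90.9 CPM, from knockout replicates 1, 2 and 4, at 94.01, 95.3 and 94.2 CPM.

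How far knockout replicate 3 stood above the next knockout differed between members. It was 7.29-fold above in Foxi1, 5.16-fold in Slc4a9, 4.96-fold in Atp6v1c2, 3.79-fold in Atp6v1b1, 3.07-fold in Hmx2, 2.83-fold in Atp6v1g3 and 2.38-fold in Atp6v0d2. In Oxgr1 and Slc26a4 it was only 1.20-fold and 1.11-fold above. These last ratios were not compared with the others by a test. Slc4a9, like Oxgr1 and Slc26a4 a gene of type B cells, went with Foxi1 in this respect.

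As a description over the 8 libraries, which share genotype and depth differences, Pearson correlations of log2 CPM between members were above 0.9 for 23 of 45 pairs. The closest pair was Slc4a9 with Atp6v1b1 (r = 0.99). Slc4a1 had the loosest tie, with a median r of 0.50 to the other members, and the 36 pairs without it ran down to 0.72, between Foxi1 and Slc26a4. Slc4a9 had the highest median r, 0.98, and Foxi1 had 0.94. Outside all lists, the 5 named genes most like the mean standardised profile of the 10, over the same 8 libraries, were Tmem88, Fhod3, Fgfr3, Ly6a and Hbegf, at r from 0.995 to 0.996. Fhod3, an actin regulator, was called (log2 fold change −0.96, edgeR adjusted p 0.0419). The others lay between −0.39 and −1.14 with adjusted p values from 0.0510 to 0.0949.

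**Figure D2:**
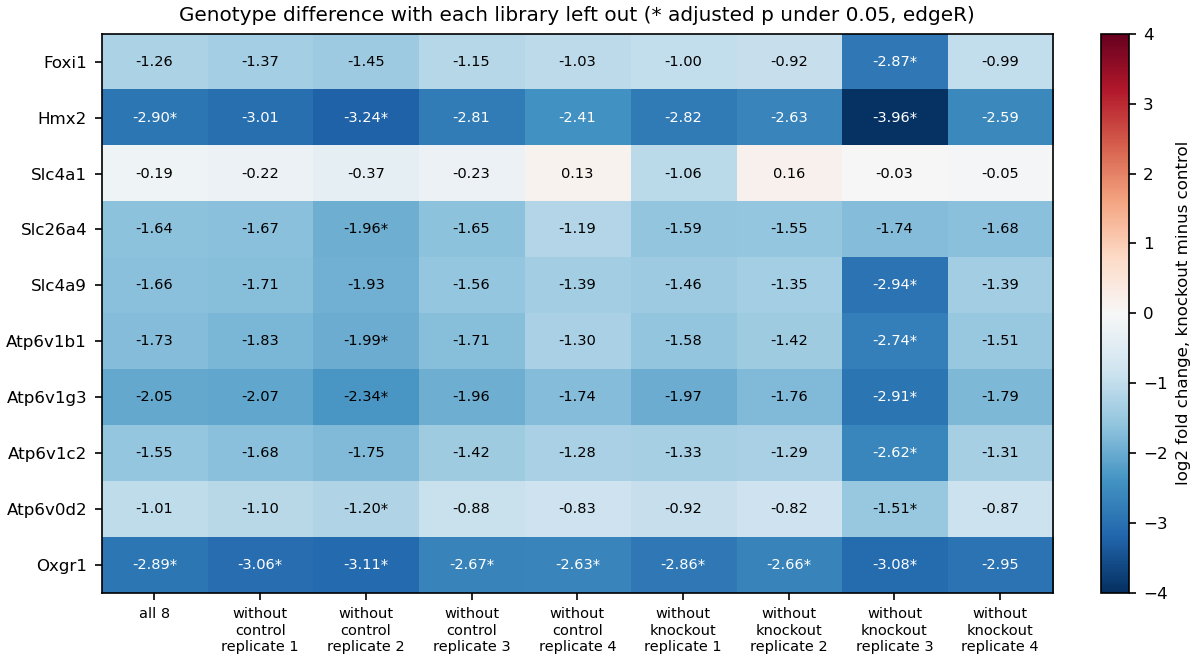
Log2 fold change of each gene (rows) with all 8 libraries and with each library left out (columns), from the same edgeR fit across all genes. An asterisk marks an adjusted p under 0.05. Asterisks are most frequent without knockout replicate 3, where 8 genes were called, and Slc4a1 has none.

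Leaving out a library therefore moved the count of called members from 0 to 8. Without knockout replicate 3, 8 of 10 were called lower, where 9.30% of all genes tested in that fit were. Without control replicate 2 there were 6, against 19.0% of all genes. Without knockout replicate 4 there were none by edgeR, against 0.230% of all genes, and 4 had an unadjusted p under 0.05. Oxgr1 was the single called member without control replicates 1, 3 or 4 (against 1.28%, 0.928% and 1.83% of all genes) and without knockout replicates 1 or 2 (1.12% and 1.47%). DESeq2 called 6 of the 10 lower, where 13.6% of all genes tested were. Limma-voom with sample weights called 9, all except Slc4a1, against 22.9% of all genes. Among the 5 libraries with Y-linked transcripts alone, 2 were called, Slc26a4 and Oxgr1, against 7.84% of all genes, and all 10 log2 fold changes were below 0. With the adrenal list as a covariate, Oxgr1 was the called member (adjusted p 0.0305), against 3.31% of all genes called lower. The same held with Y-linked transcripts as a covariate (5.62%) and with a filter at a mean of 1 CPM (9.41%), which left Hmx2 untested. Without the 3 libraries highest in adrenal genes, a choice made after the data were seen, 3 controls and 2 knockouts remained and no member was called lower by edgeR, nor was any other gene (0.00% of all genes tested). In that fit 1 of the 10 had an unadjusted p under 0.05, and Oxgr1 had a log2 fold change of −2.71.

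The intercalated cell form of each pump subunit was next set against the widely expressed form of the same subunit, per kilobase and within each library. This asks whether the specialised form moved apart from the general one. In the controls Atp6v1b1 stood at 19.3%, 12.7%, 25.3% and 37.7% of Atp6v1b2. In the knockouts it stood at 6.91%, 2.83%, 25.5% and 5.70%. The ratio of knockout replicate 3 was thus above the geometric mean of the controls, 22.0%, and the other knockouts were below every control. The mean difference was −1.59 on the log2 scale, with an exact two-sided permutation p of 0.114 (adjusted over 5 ratios, 0.143).

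Atp6v1g3 ran at 2.71% to 11.2% of Atp6v1g1 in the controls and 0.781% to 5.18% in the knockouts, a log2 difference of −2.01 (exact permutation p 0.0571, adjusted 0.143). Atp6v1c2 ran at 12.5% to 26.8% of Atp6v1c1 in the controls and 3.62% to 22.0% in the knockouts (difference −1.54, exact permutation p 0.0857, adjusted 0.143). For Atp6v0d2 against Atp6v0d1 the ranges were 8.82% to 16.2% and 4.37% to 13.5% (difference −0.91, exact permutation p 0.0857, adjusted 0.143). In each of these 4 ratios the groups overlapped through knockout replicate 3 alone, and none passed the test, for which 4 against 4 libraries allow a smallest p of 0.0286. The ratio of the type B exchanger Slc26a4 to the type A exchanger Slc4a1 was 47.6% to 121% in the controls and 14.4% to 182% in the knockouts (difference −0.71, exact permutation p 0.457). Its lowest value was in knockout replicate 1, where Slc4a1 was highest.

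**Figure D3:**
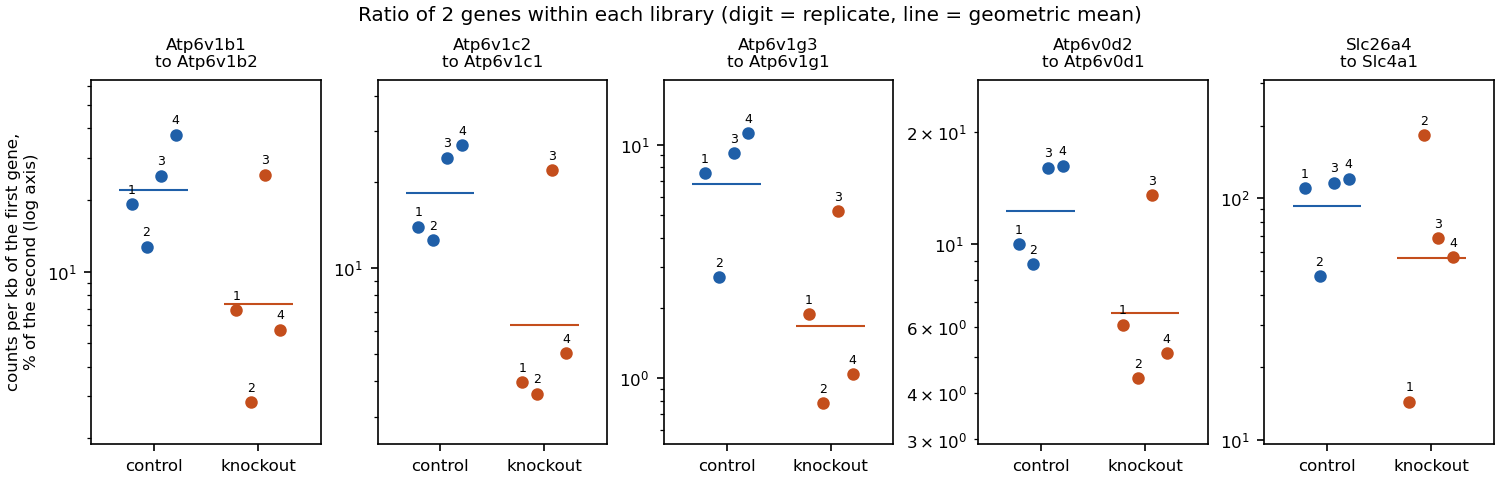
Counts per kilobase of the first gene as a percentage of the second within each library, on log axes that differ between panels. Points are libraries with their replicate numbers and lines are geometric means. In the first 4 panels knockout replicate 3 lies within the controls and the other knockouts lie below them. In the fifth panel the knockouts reach both below and above the controls.

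The other V-ATPase genes, most of them widely expressed, had smaller fitted differences. Of 19 such genes, 16 had lower fitted levels (median log2 fold change −0.35), 5 were called lower and 1 higher. As shares that is 31.6% called, against 14.9% of all genes tested. Atp6v1a, which encodes the catalytic A subunit, fell from 208 ± 66.1 to 109.9 ± 30.1 CPM (log2 fold change −0.92, SE 0.25, edgeR adjusted p 0.0399). Atp6v1b2 fell from 141 ± 23.6 to 99.6 ± 7.10 CPM (−0.50, adjusted p 0.0289), with no overlap between groups. Atp6v1d (−0.52, adjusted p 0.0320), Atp6v1c1 (−0.37, 0.0352) and Atp6v1g1 (−0.25, 0.0461) were the other calls, while Atp6v0d1 was not called (−0.19, adjusted p 0.132). Tcirg1, which encodes the a3 subunit of V0 and is prominent in osteoclasts and immune cells, rose from 56.96 ± 4.04 to 76.1 ± 2.59 CPM (0.42, adjusted p 0.0128). Tcirg1 stayed called whichever of the 8 libraries was omitted, whereas Atp6v1a, Atp6v1b2 and Atp6v1d were called in 2 of those cases and Atp6v1c1 and Atp6v1g1 in 1. Mrc1, C1qa and Ctsk, genes of macrophages or osteoclasts, were the 3 called higher in the list given above, named here after their values were seen, and their part in the rise of Tcirg1 was not tested.

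A further 17 genes of intercalated cells were taken from a list. Of these 15 had lower fitted levels (median −1.002) and 3 were called, 17.6% of the list against 14.9% of all genes. Atp6v0a4, the a4 subunit of V0 found in intercalated cells and some proximal tubule cells, was 73.8, 19.98, 83.6 and 110.6 CPM in the controls and 11.2, 5.92, 27.5 and 12.4 CPM in the knockouts. It fell by 2.33 on the log2 scale (SE 0.56, edgeR adjusted p 0.0298). Rhbg, an ammonia transporter, was 1.90 to 8.04 CPM in the controls and 0.251 to 1.799 CPM in the knockouts, without overlap (−2.53, SE 0.67, adjusted p 0.0384). Car2, the cytosolic carbonic anhydrase shared by many tubule cells, fell from 105.8 ± 38.5 to 46.2 ± 12.6 CPM (−1.19, SE 0.27, adjusted p 0.0264). All 3 calls were kept only without control replicate 2 or knockout replicate 3, and were lost in the other 6 fits with a library left out, at adjusted p values up to 0.105. Tfcp2l1, a transcription factor of collecting duct cells and the most abundant of the list, was 181 ± 52.0 and 134 ± 44.02 CPM (−0.43, adjusted p 0.258).

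**Figure D4:**
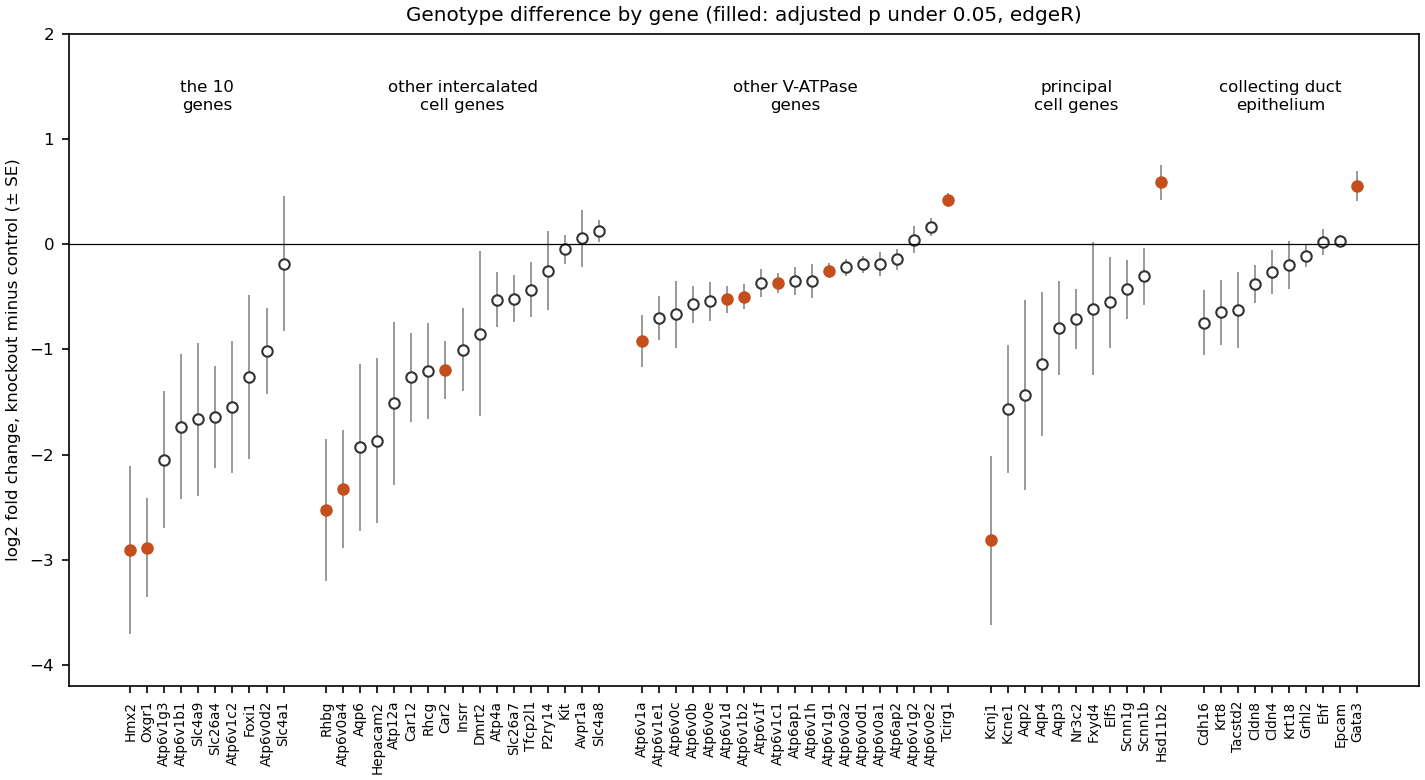
Log2 fold change of each tested gene in 5 lists, with its SE, from the edgeR fit over all genes. Filled points have an adjusted p under 0.05. The 10 genes spread from −2.90 to −0.19 and the other V-ATPase genes from −0.92 to 0.42. Most points are open in each of the 5 lists.

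Close relatives of the members were few. Foxi2 had 0 counts in every library, which allows at most 3 counts, and Foxi3 and Hmx3 were at most 0.0692 and 0.364 CPM, so none was tested. Hmx1 did not pass the filter either. It stood at 0.164 to 0.565 CPM in the controls, at 2.32 and 1.83 CPM in knockout replicates 1 and 4, and at 0.251 and 0.173 CPM in knockout replicates 2 and 3. Slc4a2, the exchanger AE2 of many epithelia, was 69.2 ± 12.8 and 59.9 ± 2.34 CPM (−0.21, edgeR adjusted p 0.241). Slc4a3 rose from 48.97 ± 1.88 to 65.9 ± 8.04 CPM without overlap (0.43, SE 0.09, adjusted p 0.0225), which held in 2 of 8 cases with a library omitted.

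Principal cells, the neighbours of intercalated cells, were represented by 12 genes, of which 11 were tested. Among them 10 had lower fitted levels (median −0.71), 1 was called lower and 1 higher. These 2 calls are 18.2% of the list, near the 14.9% of all genes tested. Aqp2, the vasopressin-regulated water channel, was 305, 218, 792 and 415 CPM in the controls and 45.2, 22.3, 508 and 64.7 CPM in the knockouts (log2 fold change −1.43, SE 0.90, edgeR adjusted p 0.278). As in Foxi1, knockout replicate 3 stood among the controls. Scnn1b, a subunit of the epithelial sodium channel, was 83.2 ± 22.3 and 67.2 ± 24.5 CPM and was not called (−0.31, adjusted p 0.435). Kcnj1, the ROMK potassium channel of principal and thick ascending limb cells, fell by 2.82 (SE 0.80, adjusted p 0.0465). Hsd11b2, which protects the mineralocorticoid receptor from glucocorticoids, rose from 30.9 ± 8.29 to 46.4 ± 3.66 CPM (0.59, SE 0.17, adjusted p 0.0459). Each of these calls held in 2 of 8 cases with a library omitted.

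Genes of the collecting duct epithelium as a whole moved little, with a median of −0.23 over 10 genes. Epcam, a general epithelial adhesion gene, was 342 ± 18.5 and 349 ± 12.6 CPM (0.03, edgeR adjusted p 0.745), and Cdh16 was 493 ± 169 and 294 ± 119 CPM (−0.74, adjusted p 0.124). Gata3, a transcription factor of the collecting duct lineage, rose from 72.03 ± 15.2 to 105.8 ± 12.6 CPM (0.56, SE 0.14, adjusted p 0.0364), a call kept in 1 of the 8 fits. Proximal tubule markers summed to 534 to 2135 CPM in the controls and 43.4 to 304 CPM in the knockouts, with 8 of 8 called lower, where 8.27% of all genes tested were. For the thick ascending limb and distal convoluted tubule the sums were 238 to 1089 CPM and 19.6 to 309 CPM, with 4 of 6 tested genes called lower, and Pvalb at most 0.381 CPM. Nephron progenitor markers summed to 356 to 579 CPM and 424 to 617 CPM. Of these 7 genes Cited1 (−1.64, adjusted p 0.0225) and Meox1 (−1.45, adjusted p 0.0132) were called lower and Gdnf (0.62, adjusted p 0.0390) higher, all named after their values were seen. That is 42.9% of the list called, against 14.9% of all genes tested. Results with a library omitted are not given for these marker lists. The part of these shifts in the levels of the 10 genes was not tested.

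**Figure D5:**
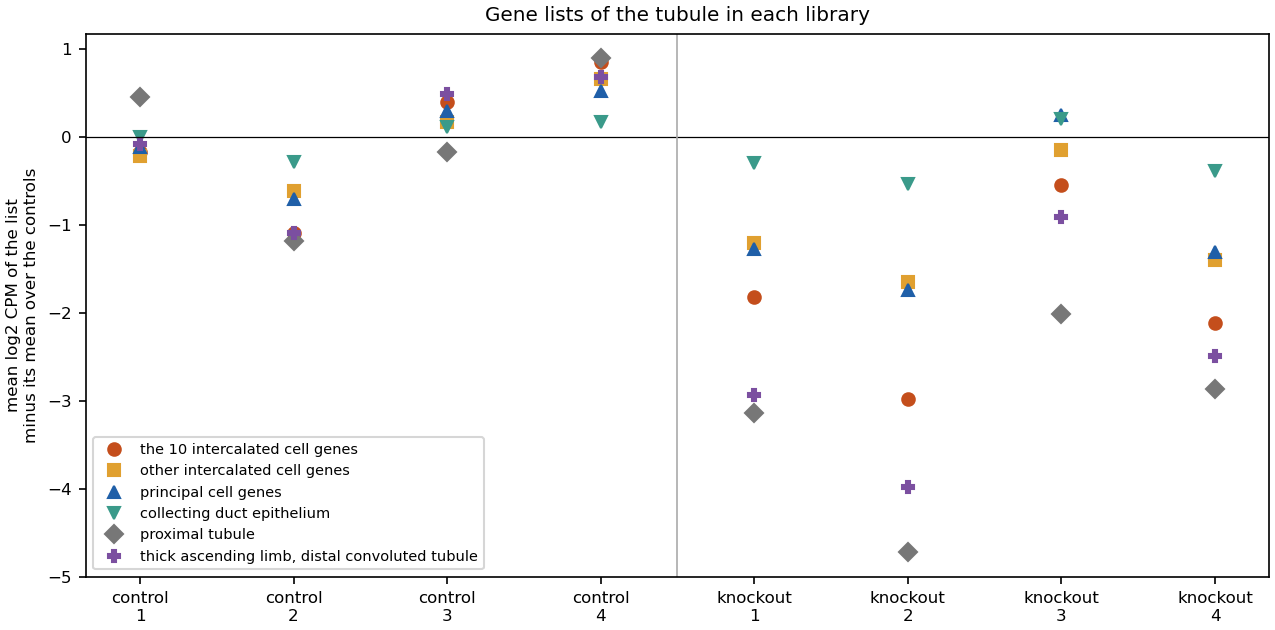
Mean log2 CPM of 6 gene lists in each library, less the mean of the same list over the controls. In knockout replicate 3 the 10 genes stand at −0.54 and the principal cell list at 0.25, whereas the proximal tubule list stands at −2.02. In knockout replicate 2 all 6 lists have their lowest value.

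Placed on this scale, the 10 genes stood at −1.81, −2.98, −0.54 and −2.12 in knockout replicates 1 to 4, and at −0.17, −1.09, 0.40 and 0.86 in the controls. Principal cell genes stood at −1.28, −1.74, 0.25 and −1.31 in the same knockouts. Proximal tubule genes were lower still, at −3.14, −4.72, −2.02 and −2.87. Control replicate 2 was the lowest control for all 6 lists plotted.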

How the data were processed

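Bulk messenger RNA was sequenced from 4 control and 4 conditional knockout mouse kidneys. Read counts, whole numbers for each Ensembl gene, were deposited by the authors in a table of the series and in a file for each library, and 0 cells differed between them. Per the submitters' processing notes, Trimmomatic 0.36, STAR 2.5.2b, featureCounts of Subread 1.5.2 and DESeq2 were used with GRCm38. Strandedness is not given in the sources used here. Symbols came from GENCODE M21 (48970 of 49315 IDs matched). Differences were tested in edgeR 4.0.16 (quasi-likelihood, R 4.3.3), with TMM sizes, the default low-count filter and Benjamini-Hochberg adjustment over 18485 genes. All 8 libraries entered without covariates. A call is an adjusted p under 0.05. CPM used TMM sizes. Ratios had 0.5 counts added and were compared by exact two-sided permutation. Library totals of 19524945 to 28544511 counts limit the precision of members near 1 CPM. Alternatives were DESeq2 1.42.0, limma 3.58.1 (voom), other filters and size factors, Y-linked and adrenal covariates, subsets of libraries and a replicate block.

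Named were all members, Kdm1a, both genes of each ratio, called genes of 5 related lists (at most 5 a list, by adjusted p), the 2 most abundant genes of each, genes needed as checks, and the 5 genes outside all lists most correlated with the members. The members and lists were chosen with earlier results of these data known. Promoter sequences are from RefSeq (GRCm38.p6).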

Additional observations from a re-analysis of the deposited data

Results flagged for a closer look

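In 4 of 32 groups of 4 values checked (the levels of the 10 genes and Kdm1a and the 5 ratios, in controls and in knockouts), 1 library lay far from the rest, with a gap over range above 0.829. Chance gives this in about 1 in 20 groups, and the genes share libraries. Knockout replicate 3 was the distant library for Foxi1 (16.0 CPM, gap over range 0.911), Slc4a9 (32.3 CPM, 0.886) and Atp6v1c2 (9.10 CPM, 0.944). Among controls, the log2 ratio of Slc26a4 to Slc4a1 was lowest in replicate 2, at −1.07 (gap over range 0.8997), against 0.14, 0.21 and 0.27 in the others.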

How the results depend on the processing

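With all libraries, 2751 genes were called, with 2 members, 3 other intercalated cell genes, 6 other V-ATPase genes and 2 principal cell genes. In that order, the counts were 4506, 6, 6 and 10 with DESeq2 (principal cell genes within 1.5 times), and 8302, 9, 11, 17 and 11 with voom. They were 1195, 1, 0, 2 and 0 with the adrenal covariate, and 1, 0, 0, 0 and 0 without the 3 libraries highest in adrenal genes. Leaving out 1 library gave 153 to 7084 genes, 0 to 8 members, 0 to 9 other intercalated, 1 to 13 V-ATPase and 0 to 7 principal cell genes. A mean filter of 1 CPM left 1 member called, since Hmx2 was not tested. The Y-linked covariate gave 1 member, 3 V-ATPase genes and 1 principal cell gene, and the 5 Y-positive libraries 0 principal cell genes. Kdm1a lost its call in those libraries (−0.28, adjusted p 0.0562) and without the 3 adrenal-high libraries (−0.29, 0.325), and ran from −0.29 to −0.24 with 1 library left out. Slc4a1 changed sign without control replicate 4 (0.13) and knockout replicate 2 (0.16), with a range from −1.06 to 0.16 over the omitted libraries. Apart from fewer genes or samples tested, the cause was not tested. Same-numbered libraries deviated together in only 2 of 4 pairs (r from −0.11 to 0.33), and 3 of 8 correlated best with their own number. The labels state no pairing, and so few pairs cannot settle whether the numbers mark one. The replicate block gave 3229 of 18485 genes, 1748 of them lower. It gave 9 members, all lower and all except Slc4a1, with 7 other intercalated, 12 V-ATPase and 5 principal cell genes. Every ratio kept its direction under the alternatives run, and stayed short of the threshold with another pseudocount. The difference in the ratio of Slc26a4 to Slc4a1, −0.71 with all libraries, nearly vanished in some of them. It was −0.0519 without knockout replicate 1 and −0.0491 in the 5 Y-positive libraries. Division by length shifts all libraries alike, so leaving it out could not change the differences or the test. Under the block, the 4 pairs could not reach the threshold, since their smallest exact permutation p is 0.125. With libraries left out, ratios were not tested. Hmx2 has 22 counts over the knockouts, which limits its precision.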
